A study of Mus musculus with 16 samples.

Results

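The 54 genes described here encode the proteins that license replication origins and drive the replication fork in mouse cells. They were chosen by name: each symbol matched 1 Ensembl identifier among the 53801 genes of the count table, and all 54 were among the 13774 genes that passed a filter on low counts. By role they are 6 subunits of the origin recognition complex, 3 licensing factors, the 6 subunits of the MCM2-7 helicase, 8 genes of helicase activation, 9 subunits of the polymerases and primase, 7 genes of the sliding clamp and its loaders, 5 genes of lagging strand synthesis and single-strand binding, 2 subunits of chromatin assembly factor 1, 4 genes of fork protection and checkpoint signalling, and 4 regulators of the G1/S transition.

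Polyadenylated RNA was sequenced from a mouse acute myeloid leukemia line transformed by MLL-AF9, a fusion oncogene of blood progenitors. Cells whose Slc16a3 gene had been targeted by CRISPR-Cas9 (MCT4-KO) were set against cells with a non-targeting guide (control), and both were grown at 20% or at 2% oxygen, with 4 libraries in each of the 4 groups. MCT4, the product of Slc16a3, carries lactate and protons out of the cell. In all 16 libraries, controls included, Cas9 had been induced with 4-OHT and the cells grew in RPMI with FBS, IL-3 and SCF. All groups come from 1 leukemia line. The sources used here give neither the guide positions nor the time at each oxygen level, nor whether the knockout cells were a clone or a pool. Nothing in the labels says that replicates were separate cultures, so the p-values rest on how far these libraries differ among themselves, a spread that may be technical.

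A replication origin is licensed in G1, when the origin recognition complex, Cdc6 and Cdt1 load the MCM2-7 helicase onto DNA as an inactive double ring. At the start of S phase the kinase Cdc7 with its partner Dbf4, together with Cdc45, the GINS complex and Mcm10, turn that ring into a moving fork, on which the polymerases, the clamp Pcna, its loader RFC and the single-strand binder RPA work. Cyclin E and the E2F factors open the way into S phase, and many of these genes are classical E2F targets whose RNA peaks near the G1/S boundary in dividing cells, leukemic cells among them.

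The libraries held 21192179 to 28871459 estimated counts. Slc16a3 RNA fell in the knockout by log2 -1.39 ± 0.076 at 20% and -1.15 ± 0.072 at 2% oxygen (edgeR adjusted p = 5.10e-10 and 8.46e-10). By exact permutation over libraries, two-sided, p was 0.0286 for either oxygen level, and with 70 possible splits none smaller can be reached. Slc16a3 RNA averaged 210 CPM (counts scaled to a common library size with edgeR's TMM factors) in controls and 79.9 CPM in MCT4-KO cells at 20% oxygen. At 2% oxygen the means were 812 and 365 CPM. The libraries hold RNA only, so MCT4 protein was not measured here. All 8 myeloid progenitor markers passed the filter, with a summed level of 1587 to 1896 CPM per library. Among them Csf1r was low, with group means of 0.486 to 1.41 CPM. Single markers moved with the groups: the mean of Mpo was 139 CPM in controls and 309 CPM in MCT4-KO cells at 20% oxygen, and 329 and 444 CPM at 2%. Cd34 had means of 152 and 138 CPM at 20% and 359 and 272 CPM at 2%, and Hoxa9 of 449 and 384 CPM and then 263 and 236 CPM. The part of these shifts in the results below was not tested. No T cell marker passed it, and of the markers of other cell types Cd3e, Cd4, Col1a2, Dcn, Cdh5 and Kdr were at 0 in every library. The erythroid, stromal and epithelial lists each summed to at most 3.30 CPM, and Pecam1, an endothelial marker that leukocytes also carry, made up the endothelial sum of 179 to 301 CPM. Mitochondrially encoded genes took 0.605 to 0.984% of the counts in control and 0.645 to 0.801% in MCT4-KO libraries at 20% oxygen, against 0.241 to 0.338% and 0.330 to 0.413% at 2%, so this share moved with oxygen, and its part in the oxygen results was not tested. In bulk RNA, fewer cells of a type, such as cells in S phase, and less RNA per cell cannot be told apart.

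Promoters are shown first. The members were chosen by name and not by sequence, yet many are classical E2F targets. A high share of E2F-type letters is therefore not independent of that choice. RefSeq (GRCm38.p6) lists a promoter, from 250 bases before to 50 after the start, for 43 of the 54 genes and for 27025 genes in all. The latter include genes that did not pass the filter on low counts. The E2F-type letters TTGGCGC or TTCGCGC or TTCCCGC, searched on both strands and able to overlap one another, stood in 25 of the 43 (58.1%) and in 8.21% of all listed promoters. The CCAAT box stood in 23 of the 43 (53.5%) against 37.9% of all promoters, and the CHR letters TTTGAA in 6 (14%) against 18.1%. The E2F-type letters were present in 12 of 18 promoters of members that rose in control cells at low oxygen and in 9 of 18 of those that fell. In the knockout the shares went the other way. At 2% oxygen 16 of 29 promoters of members that rose held the letters, against 9 of 13 of those not called. At 20% oxygen these counts were 7 of 14 and 18 of 29. A match describes letters and not a bound site. The windows below hold 80 bases upstream of the start and outside annotated exons, and were picked to show such letters, in capitals, beside genes that rose and 1 that fell at low oxygen: Mcm6, Rpa2 and Chaf1a rose in both genotypes, Mcm5 in MCT4-KO cells only by the test, and Pola1 fell in both.
Mcm5, chr8:75109345-75109424, plus strand: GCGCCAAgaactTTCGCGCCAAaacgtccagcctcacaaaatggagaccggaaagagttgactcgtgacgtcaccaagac
Mcm6, chr1:128359735-128359814, minus strand: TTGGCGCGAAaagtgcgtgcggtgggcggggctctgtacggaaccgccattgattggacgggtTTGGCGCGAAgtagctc
Rpa2, chr4:132768252-132768331, plus strand: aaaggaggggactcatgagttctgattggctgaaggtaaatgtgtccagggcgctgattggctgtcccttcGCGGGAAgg
Chaf1a, chr17:56040336-56040415, plus strand: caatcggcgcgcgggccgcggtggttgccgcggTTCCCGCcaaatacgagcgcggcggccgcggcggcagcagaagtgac
Pola1, chrX:93632245-93632324, minus strand: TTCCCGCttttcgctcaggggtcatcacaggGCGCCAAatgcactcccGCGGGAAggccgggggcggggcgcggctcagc
In the Mcm6 window the letters stand at 2 places, each time as a pair of overlapping matches on opposite strands, and the Pola1 window holds them at 3 places.

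Levels below are in CPM, and each change is a log2 fold change from a single edgeR quasi-likelihood model of the 16 libraries (n = 4 per group), given with an SE. The test returns no SE, so each was derived as the absolute log2 fold change divided by the square root of its F value. The words rose and fell are kept for an adjusted p, over the 13774 genes, of under 0.05. Together the 54 genes took 4195 to 4355 CPM in the controls and 4481 to 4766 CPM in MCT4-KO libraries at 20% oxygen. At 2% oxygen the sums were 4634 to 4750 CPM for controls and 5246 to 5341 CPM for the knockout. With TMM scaling MCT4-KO cells at 2% oxygen thus held the highest sums, and at each oxygen level no knockout library overlapped a control library. The TMM factors were 1.06 to 1.08 at 20% and 0.912 to 0.953 at 2% oxygen, so the order of the sums across oxygen levels depends on this scaling.

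At 20% oxygen the knockout came with small increases across the replication genes. Of the 54 genes 17 rose (31.5%, beside 4.96% of all tested genes) and 0 fell (beside 4.8%), where 9.76% of all genes changed in either direction, and 52 had a positive log2 fold change, with a median of 0.11 beside -0.0051 over all tested genes. The 17 were 5 of the 6 MCM subunits (all but Mcm2), Cdc6 and Cdt1, Mcm10 and Cdc45, Pola2 and Prim2, Pcna, Rfc2 and Rfc5, Fen1, Chaf1a and E2f1. No subunit of the origin recognition complex and no fork protection gene was among them. The knockout libraries lay above the controls without overlap for 19 genes (35.2%, beside 7.68% of all genes) and below them for 0 (beside 6.89%). The highest values were 0.24 ± 0.052 for E2f1, a transcription factor that drives S phase genes (edgeR adjusted p = 0.00588), and 0.22 ± 0.035 for Mcm4 (edgeR adjusted p = 4.89e-04).

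The count at 20% oxygen depended on single libraries. It was 9 without replicate 3 of the controls and 9 without replicate 3 of the MCT4-KO cells, and 11 when only the compared groups were fitted. Called in all 24 alternatives were Cdc6, E2f1, Fen1, Mcm3, Mcm4, Mcm5, Mcm6, Pola2 and Rfc2.

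At 2% oxygen more of the 54 genes passed the test in the knockout, as did more of all genes. Here 32 of the 54 rose (59.3%, beside 19.4% of all genes) and 1 fell (beside 19.1%), where 38.4% of all genes changed. The log2 fold change was positive for 46, against 52 at 20% oxygen, with a median of 0.14 against 0.11. By role the median was lower at 2% than at 20% for licensing factors (0.11 against 0.16) and helicase activation (0.10 against 0.15). It was lower for polymerases and primase too (0.041 against 0.091), and higher for the other roles, though barely for the clamp and its loaders (0.117 against 0.116). All 6 MCM subunits, all 4 G1/S regulators, both chromatin assembly subunits, 4 of 5 lagging strand and RPA genes, 4 of 6 origin recognition subunits, 4 of 7 clamp genes and 3 of 4 fork protection genes rose. The share was lowest among polymerases and primase (2 of 9) and helicase activation genes (2 of 8). Orc5 was the gene that fell, by 0.16 on the log2 scale. The ranges of the groups did not overlap for 33 genes that lay higher in the knockout (61.1%, beside 18.5% of all genes) and for 1 that lay lower (beside 18.5%).

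Both knockout comparisons called 13 of the 54 genes higher (24.1%, beside 2.03% of all genes) and 0 lower (beside 2.15%). They were Cdc6, Mcm3 to Mcm7, Mcm10, Cdc45, Pcna, Rfc2, Fen1, Chaf1a and E2f1, which span loading, helicase, clamp, flap cleavage and histone deposition. The comparisons share no library, but both set MCT4-KO against control cells of the same leukemia line within a single fit. The shared calls are therefore not independent replication. Whether a separately made knockout would give them was not tested. Cdc6, Mcm3 to Mcm6, Rfc2, Fen1 and E2f1 were called in every alternative at both oxygen levels. The calls for Mcm7, Mcm10, Cdc45, Pcna and Chaf1a were lost in some alternatives. Exons of other genes overlap 84.2% of those of Fen1 and 52.5% of those of Chaf1a.

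**Figure D1:**
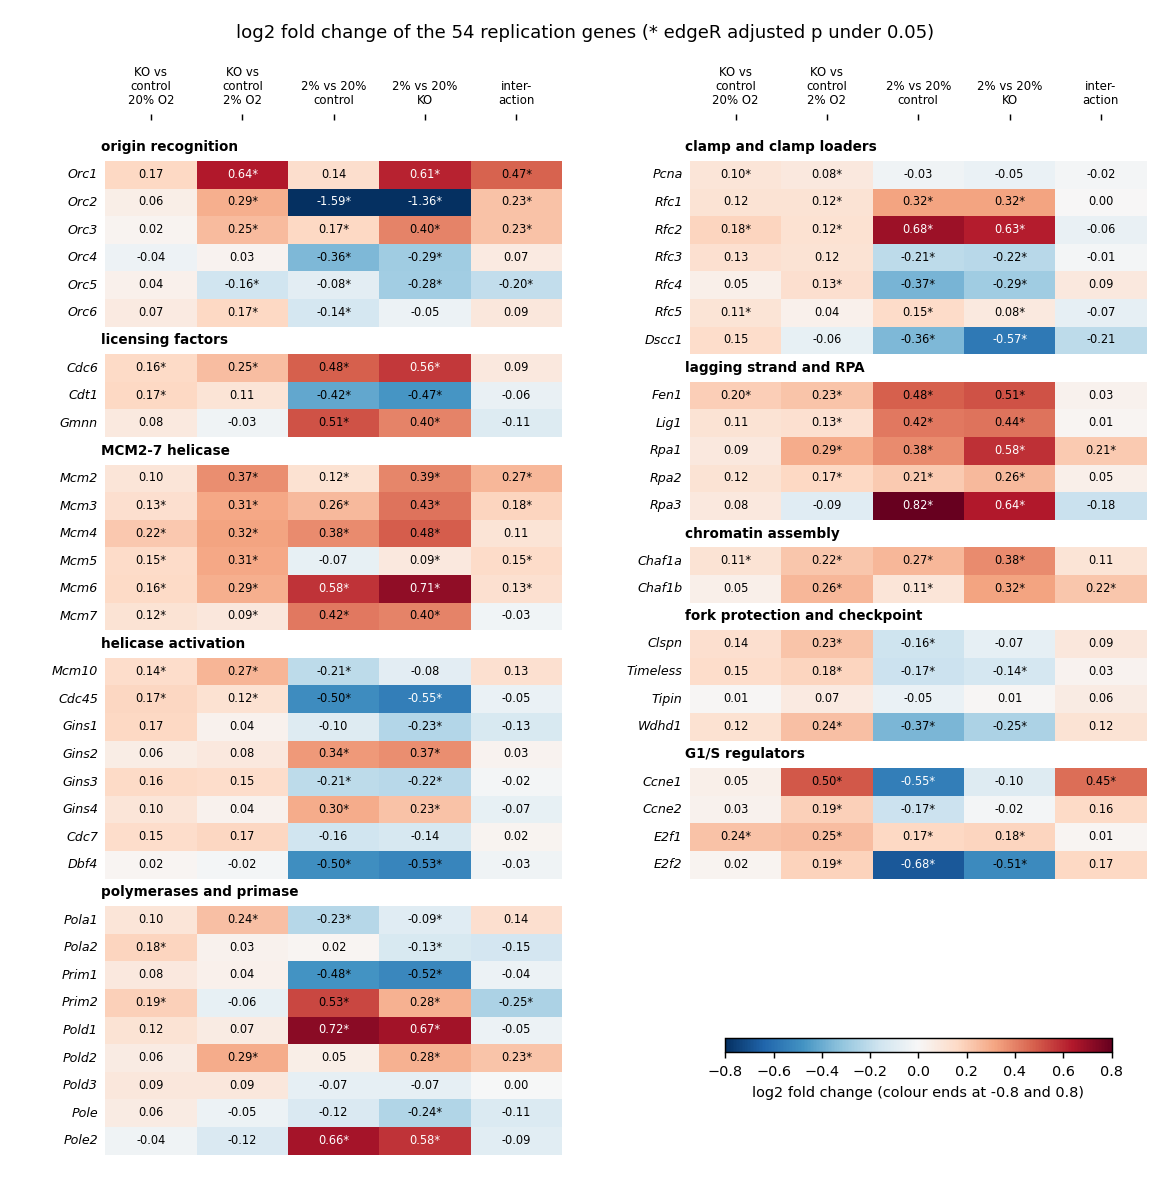
The log2 fold change of each of the 54 genes, grouped by role, in 5 comparisons: the knockout at 20% and at 2% oxygen, low oxygen in control and in MCT4-KO cells, and the interaction (knockout effect at 2% minus at 20% oxygen). Red is higher, blue lower and an asterisk marks an edgeR adjusted p under 0.05; the MCM2-7 rows are red in both knockout columns, while the oxygen columns mix both colours, down to -1.59 for Orc2.

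The knockout effect was then tested for a difference between the oxygen levels, as the interaction of the fit. It was larger at 2% oxygen for 11 of the 54 genes (20.4%, beside 11.6% of all genes) and smaller or opposite for 2 (3.7%, beside 11.3%), where 22.9% of all genes were called. The 11 were Orc1, Orc2 and Orc3, Mcm2, Mcm3, Mcm5 and Mcm6, Pold2, Rpa1, Chaf1b and Ccne1, and the 2 were Orc5 and Prim2. The largest differences belonged to Orc1 (0.47 ± 0.17, edgeR adjusted p = 0.0499) and Ccne1 (0.45 ± 0.095, edgeR adjusted p = 0.00189). The call for Orc1, which read at 3.43 to 7.61 CPM in the 16 libraries, was lost in 14 of 23 alternatives, that for Mcm6 in 16 and that for Mcm5 in 7. The other 10 were called in every alternative.

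**Figure D2:**
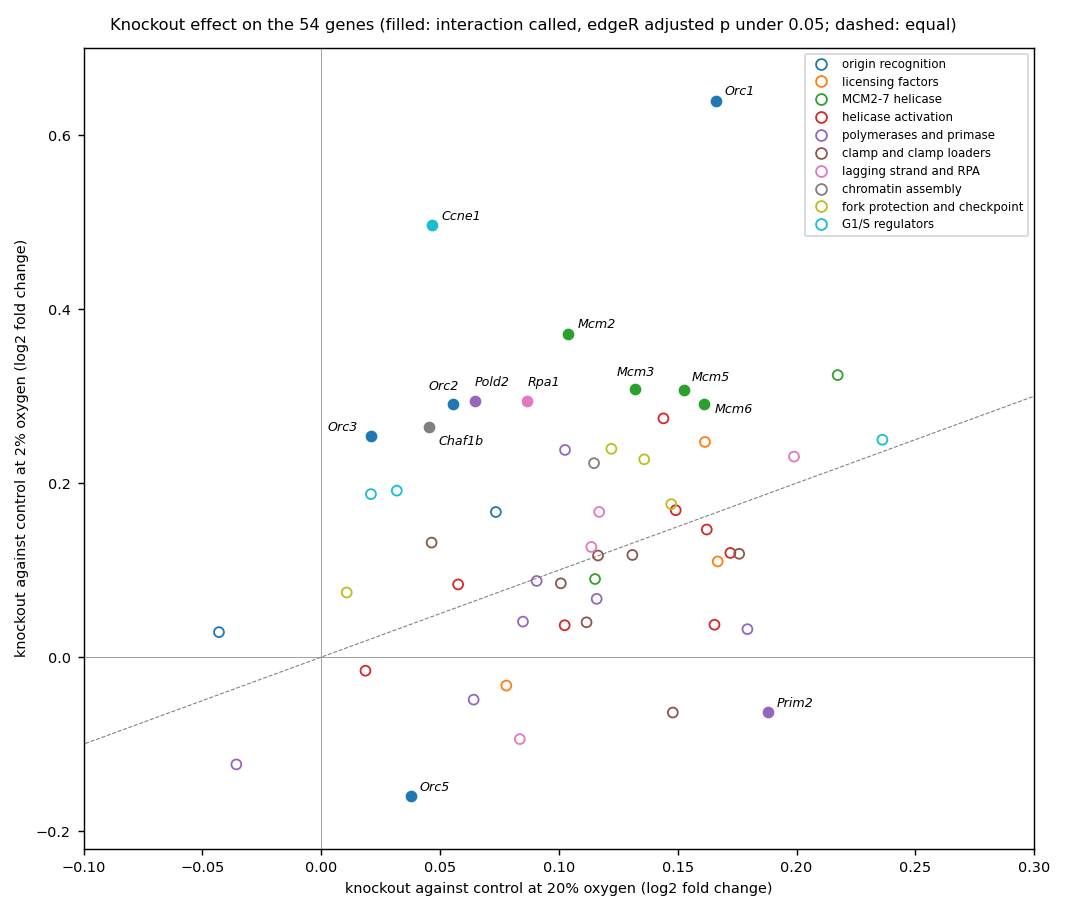
Each point is 1 of the 54 genes, with its log2 fold change between MCT4-KO and control cells at 20% oxygen (horizontal axis) and at 2% oxygen (vertical axis), coloured by role. Filled and named points are the 13 genes whose knockout effect differed between oxygen levels; Orc1 and Ccne1 lie highest on the vertical axis at 0.64 and 0.50, and Orc5 lies lowest at -0.16.

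Low oxygen moved the replication genes in both directions. In control cells 24 of the 54 rose (44.4%, beside 38.7% of all genes) and 20 fell (37%, beside 39.6%), and in MCT4-KO cells 27 rose (50%, beside 37.7%) and 18 fell (33.3%, beside 38.7%). Of all genes 78.3% and 76.4% changed in either direction, so counts near these do not set the replication genes apart, and the description turns to how the roles divided. In control cells the libraries at 2% oxygen lay above those at 20% without overlap for 21 genes (beside 34.9% of all genes) and below for 17 (beside 35.3%), with 70.2% of all genes separated. In MCT4-KO cells 25 lay above (beside 35.9%) and 17 below (beside 36.5%), with 72.4% of all genes separated. The MCM helicase rose for 5 of 6 genes in control and 6 of 6 in MCT4-KO cells. The lagging strand and RPA genes (5 of 5 in both) and chromatin assembly (2 of 2 in both) were among the genes that rose too. With library-size scaling, however, Mcm2 and Chaf1b turned negative in control cells, and Mcm5 was called lower in both genotypes. Most called genes of origin recognition, helicase activation and fork protection fell, and the polymerases and clamp loaders were divided within their own complexes. Of the 54, 24 rose in both genotypes (44.4%, beside 33.1% of all genes) and 15 fell in both (27.8%, beside 33.6%).

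The direction at low oxygen depends on the scaling for genes with small changes. With library-size scaling the median of all genes moved from -0.017 to -0.22 in control cells, and in MCT4-KO cells it became -0.19. The members then divided into 15 higher and 29 lower in control and 21 and 29 in MCT4-KO cells. Of the genes that rose with TMM scaling, Mcm2, Orc3, Chaf1b, E2f1 and Rfc5 turned negative in control cells without being called lower. In MCT4-KO cells Mcm5 and Rfc5 turned negative and were called lower. Of the members without a call with TMM scaling, Orc1, Pola2 and Pold2 turned negative in control and Tipin in MCT4-KO cells. All 9 such members in MCT4-KO cells were then called lower, Ccne1, Mcm10, Clspn and Pcna among them. So were the 10 in control cells, except Orc1.

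**Figure D3:**
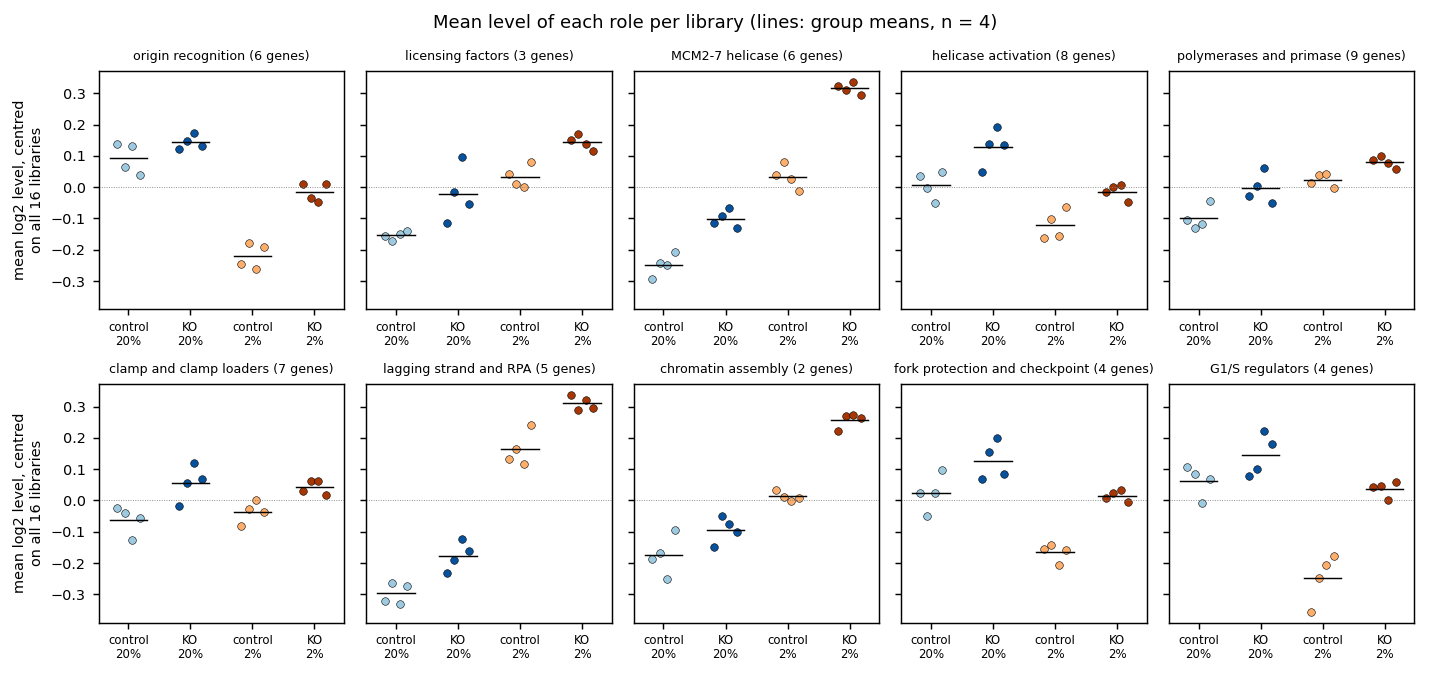
Each point is 1 library and gives the mean log2 level of the genes of a role, centred on the 16 libraries (vertical axis), by group (horizontal axis), with the group mean of 4 libraries as a line. The MCM2-7 and the lagging strand and RPA panels climb from control at 20% oxygen to MCT4-KO at 2% with TMM scaling (with library-size scaling Mcm2 turns negative at low oxygen in control and Mcm5 in MCT4-KO cells), while the origin recognition, fork protection and G1/S panels are lowest in control cells at 2%.

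The origin recognition complex, which marks origins and loads the helicase, was the role with the widest range of changes at low oxygen. Orc2 (ENSMUSG00000026037, chromosome 1, 58462771 to 58505109, minus strand, GRCm38) gave the largest change of all 54 genes. At 20% oxygen Orc2 stood at 96.8, 103, 101 and 100.2 CPM in the control and at 103, 103, 107 and 103 CPM in the MCT4-KO libraries. Its levels at 2% oxygen were 32.02, 33.9, 32.7 and 34.2 CPM in the controls and 43.04, 37.3, 40.8 and 41.4 CPM in MCT4-KO libraries. All 8 libraries at 2% oxygen lay below all 8 at 20%, and at 2% the MCT4-KO libraries lay above the controls. The change at low oxygen was -1.59 ± 0.040 in control and -1.36 ± 0.039 in MCT4-KO cells (edgeR adjusted p = 2.50e-18 and 2.46e-17), and the knockout change at 2% oxygen was 0.29 ± 0.043 (adjusted p = 2.47e-05). Exons of Nif3l1, on the other strand, overlap 29.8% of the Orc2 exons, and the strand setting of the counting is not given. Nif3l1 itself changed by -0.50 ± 0.053 and -0.24 ± 0.051 at low oxygen and by 0.18 ± 0.054 in the knockout at 2%, and its part in the Orc2 values was not tested.

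Orc1, the largest subunit and an ATPase, was the scarcest of the 6 per kilobase. Orc1 read 4.64, 3.68, 4.31 and 3.43 CPM in the controls and 5.04, 4.51, 4.74 and 3.73 CPM in MCT4-KO libraries at 20% oxygen. At 2% oxygen Orc1 read 4.41, 4.88, 3.72 and 4.62 CPM in the controls and 6.26, 7.55, 6.17 and 7.61 CPM in the knockout. MCT4-KO cells at 2% oxygen stood above the other 3 groups without overlap, and those overlapped one another. The changes were 0.64 ± 0.12 for the knockout at 2% oxygen (edgeR adjusted p = 2.42e-04) and 0.61 ± 0.11 for low oxygen in MCT4-KO cells (adjusted p = 6.30e-05). Those comparisons share the MCT4-KO libraries at 2% oxygen. Orc3 rose in the same comparisons, from 70.4 ± 3.83 CPM in control to 83.96 ± 2.53 CPM in MCT4-KO cells at 2% oxygen (SD, n = 4).

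Orc5 was the subunit that fell in the knockout at 2% oxygen, and like Orc2 and Orc4 it fell at low oxygen in both genotypes. It stood at 61.9 ± 0.609 and 63.5 ± 2.27 CPM in the controls and MCT4-KO cells at 20% oxygen and at 58.5 ± 1.52 and 52.3 ± 1.97 CPM at 2% (SD, n = 4), so that knockout cells lay highest at 20% and lowest at 2% by their means, the first without a call. Its interaction was -0.20 ± 0.050 (edgeR adjusted p = 0.00774). The fall of Orc5 at low oxygen in control cells was -0.083. It was not called without control replicate 4 at 2% (-0.075, edgeR adjusted p = 0.0827). Orc4 fell at low oxygen in both genotypes, by 0.36 and 0.29 on the log2 scale. Orc6, from 36.5 ± 1.37 to 33.2 ± 2.10 CPM in control cells, fell at low oxygen there (edgeR adjusted p = 0.0301) and rose in the knockout at 2% oxygen (adjusted p = 0.0250), a call lost in 4 of 24 alternatives.

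Per kilobase of merged exons in control cells at 20% oxygen, Orc1 stood at 1.15 CPM and Orc2 at 25.97 CPM, 22.5 times as high, with the other 4 subunits between. At 2% oxygen Orc6 replaced Orc2 as the highest per kilobase, and the ratio of highest to lowest fell to 10.6 in control and 7.61 in MCT4-KO cells. With the length of the principal transcript, a choice made after seeing the data, those ratios were 20.9 and 15.9, with Orc3 as the highest.

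The 3 licensing factors split at low oxygen. Cdc6 (ENSMUSG00000017499, chromosome 11, 98907801 to 98923940, plus strand), the ATPase that recruits the helicase with Cdt1, rose in all 4 comparisons of 2 groups. Levels of Cdc6 at 20% oxygen were 45.2, 43.01, 45.5 and 44.01 CPM in the 4 controls, and 48.3, 48.6, 53.3 and 48.4 CPM in the 4 MCT4-KO libraries. The levels of Cdc6 at 2% oxygen were 63.5, 60.1, 60.9 and 63.2 CPM in control libraries, and the MCT4-KO libraries had 73.3, 74.98, 73.4 and 72.2 CPM. The 4 groups did not overlap, with control at 20% lowest and MCT4-KO at 2% highest. The knockout changes came to 0.16 ± 0.038 and 0.25 ± 0.036 (edgeR adjusted p = 0.00890 and 2.48e-05) at 20% and 2% oxygen, and the oxygen changes 0.48 ± 0.038 and 0.56 ± 0.037 in control and MCT4-KO cells.

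Cdt1, the loader that is destroyed in S phase, and Gmnn, which encodes geminin, its inhibitor, moved in opposite directions. At 20% oxygen Cdt1 stood at 114, 120.4, 118 and 123 CPM in the control and at 123, 136, 151 and 125 CPM in the MCT4-KO libraries. In control libraries at 2% oxygen Cdt1 stood at 92.6, 90.3, 90.7 and 83.2 CPM, against 96.95, 101, 94.8 and 92.03 CPM in MCT4-KO libraries. Every library at 2% oxygen lay below every library at 20%, with changes of -0.42 ± 0.054 in control and -0.47 ± 0.053 in MCT4-KO cells. Gmnn stood at 44.6, 42.97, 43.3 and 43.7 CPM in control libraries at 20% oxygen and at 58.9, 59.9, 57.6 and 71.7 CPM at 2%. In MCT4-KO cells Gmnn read 42.3, 46.6, 48.2 and 46.997 CPM and then 61.2, 59.6, 60.8 and 60.9 CPM. Gmnn thus rose without overlap, by 0.51 ± 0.055 and 0.40 ± 0.054 (edgeR adjusted p = 4.09e-08 and 1.33e-06), and by 0.43 in control cells without replicate 4 of the controls at 2%, whose value stands apart. Cdt1 fell, and Cdc6 and Gmnn rose, under library-size scaling as well. In the knockout at 20% oxygen Cdt1 changed by 0.17 ± 0.052 with overlapping groups (edgeR adjusted p = 0.0480).

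The MCM2-7 genes, whose products form the ring that unwinds DNA, rose together in the knockout at 2% oxygen. Mcm7 changed least there, and the other 5 lay between 0.29 and 0.37 on the log2 scale. The median of the 6 was 0.14 at 20% and 0.31 at 2% oxygen, and each group of knockout libraries lay above its control group without overlap for all 6 genes at both oxygen levels.

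Mcm6 (ENSMUSG00000026355, chromosome 1, 128331590 to 128359664, minus strand) was the most abundant of the 6 per kilobase in every group. Mcm6 read 297, 311, 319 and 320.4 CPM in the controls and 354, 350.2, 353 and 337 CPM in MCT4-KO libraries at 20% oxygen. For Mcm6 the controls at 2% oxygen gave 459.9, 487, 458 and 457 CPM and the MCT4-KO cells 584, 559, 574 and 563 CPM. The 4 groups formed separate steps. Mcm6 changed by 0.16 ± 0.033 and 0.29 ± 0.032 in the knockout at 20% and 2% oxygen (edgeR adjusted p = 0.00304 and 1.04e-06) and by 0.58 ± 0.033 and 0.71 ± 0.032 at low oxygen in control and MCT4-KO cells (adjusted p = 1.18e-12 and 5.05e-14).

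Mcm2 (ENSMUSG00000002870, chromosome 6, 88883474 to 88898780, minus strand) had the smallest adjusted p of its role in the knockout at 2% oxygen. Levels of Mcm2 at 20% oxygen were 204, 216, 212 and 215 CPM in the 4 controls, and 228, 224, 233 and 225 CPM in the 4 MCT4-KO libraries. Its levels at 2% oxygen were 236, 237, 237 and 212 CPM in the controls and 296, 305, 298 and 294 CPM in MCT4-KO libraries. The MCT4-KO libraries at 2% oxygen stood well above the rest, and control replicate 4 at 2% lay within the range of the controls at 20%. The knockout change was 0.37 ± 0.035 at 2% oxygen (edgeR adjusted p = 1.75e-07) and 0.10 ± 0.035 at 20%, which did not pass (adjusted p = 0.0681). The interaction of 0.27 ± 0.050 passed (adjusted p = 6.72e-04), and was 0.23 without that control library.

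Mcm3 (ENSMUSG00000041859, chromosome 1, 20802968 to 20820312, minus strand) followed a similar course. At 20% oxygen Mcm3 stood at 234, 246, 242 and 256 CPM in the control and at 264, 271, 275 and 260.3 CPM in the MCT4-KO libraries. At 2% oxygen Mcm3 read 288, 303, 292 and 284 CPM in the controls and 368, 355, 365 and 358 CPM in the knockout. All knockout libraries lay above the controls of their oxygen level. The knockout changes were 0.13 ± 0.033 and 0.31 ± 0.033, and their difference of 0.18 ± 0.046 passed the test (edgeR adjusted p = 0.00913). Low oxygen changed Mcm3 by 0.26 ± 0.033 in control cells and by 0.43 ± 0.033 in MCT4-KO cells.

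Mcm4 (ENSMUSG00000022673, chromosome 16, 15623897 to 15637400, minus strand) had the largest knockout change of the 6 at 20% oxygen. Mcm4 read 109.5, 108, 118 and 116 CPM in the controls and 134, 133, 131 and 127 CPM in MCT4-KO libraries at 20% oxygen. The levels of Mcm4 at 2% oxygen were 148, 152, 146 and 140.3 CPM in control libraries, and the MCT4-KO libraries had 181, 184, 189 and 179.8 CPM. Again the 4 groups were separate. Its knockout changes of 0.22 ± 0.035 and 0.32 ± 0.035 were not shown to differ between oxygen levels (interaction 0.11 ± 0.049, edgeR adjusted p = 0.130). The changes at low oxygen were 0.38 ± 0.035 and 0.48 ± 0.035.

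Mcm5 (ENSMUSG00000005410, chromosome 8, 75109569 to 75128439, plus strand) was the exception at low oxygen. Levels of Mcm5 at 20% oxygen were 213, 221, 211 and 224 CPM in the 4 controls, and 228, 241, 256 and 240.02 CPM in the 4 MCT4-KO libraries. In control libraries at 2% oxygen Mcm5 stood at 207, 215, 203 and 205 CPM, against 254, 255, 263 and 254 CPM in MCT4-KO libraries. The controls at 2% oxygen reached no higher than those at 20%, whereas the MCT4-KO libraries at 2% overlapped the upper range of those at 20%. The change at low oxygen was -0.068 ± 0.035 in control cells (edgeR adjusted p = 0.0840), and 0.087 ± 0.035 in MCT4-KO cells (adjusted p = 0.0292). With library-size scaling these became -0.27 and -0.091, and Mcm5 was called lower in both genotypes. The knockout changes were 0.15 ± 0.035 and 0.31 ± 0.035.

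Mcm7 (ENSMUSG00000029730, chromosome 5, 138164583 to 138172422, minus strand) rose at low oxygen by 0.42 ± 0.030 and 0.40 ± 0.030 and changed least of the 6 with the knockout at 2%. At 20% oxygen Mcm7 stood at 214, 219, 208 and 220.03 CPM in the control and at 227, 236, 239.7 and 229 CPM in the MCT4-KO libraries. For Mcm7 the controls at 2% oxygen gave 293, 292, 284 and 285 CPM and the MCT4-KO cells 312, 303, 312 and 300.5 CPM. The libraries at 2% oxygen were all higher than those at 20%. The knockout changes of 0.12 ± 0.030 and 0.090 ± 0.030 passed (edgeR adjusted p = 0.0182 and 0.0224), the first lost in 5 and the second in 4 of 24 alternatives. Exons of Ap4m1, Cops6, Mir25 and Mir93 cover 12.6% of its exons, and Ap4m1, on the other strand, changed by -0.43 ± 0.053 in the knockout at 2% oxygen. Cops6, on that strand too, changed by 0.27 ± 0.035 there and by 0.29 ± 0.035 and 0.62 ± 0.035 at low oxygen in control and MCT4-KO cells. Neither was separated from the Mcm7 values.

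**Figure D4:**
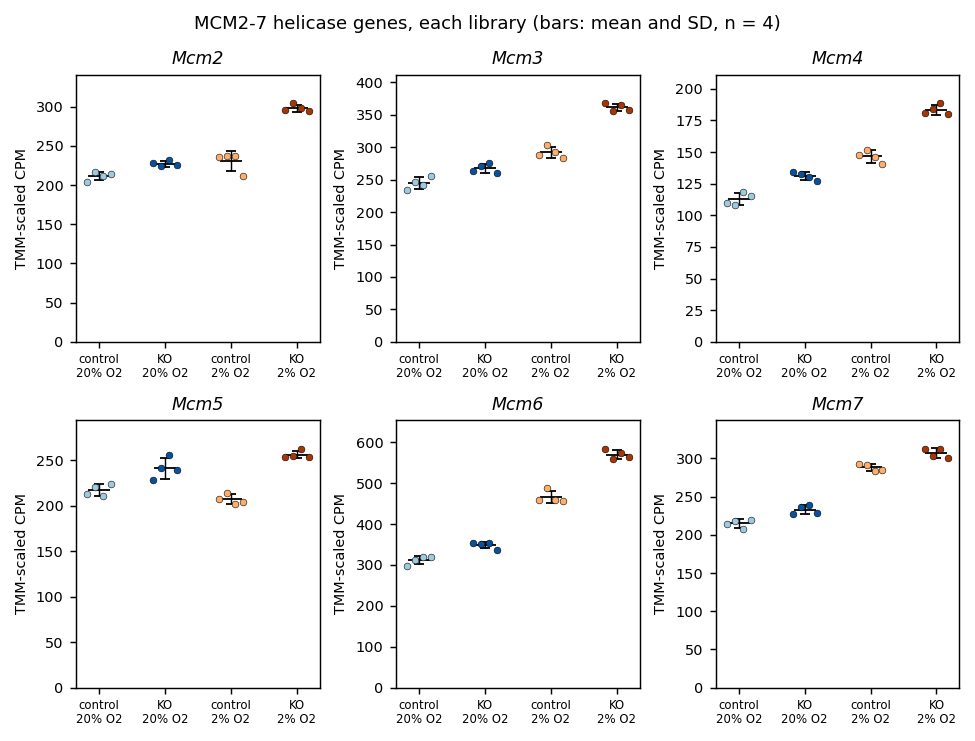
TMM-scaled CPM (vertical axis, from 0) of the 6 MCM2-7 genes in each library (points) of the 4 groups, with the mean and SD of 4 libraries as bars. For each gene the MCT4-KO points lie above the control points of the same oxygen level, and the control points at 2% oxygen overlap those at 20% for Mcm5 and, through 1 point, for Mcm2.

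Per kilobase of merged exons the 6 genes spanned 30.4 (Mcm2) to 66.8 CPM (Mcm6) in control cells at 20% oxygen, and 42.9 to 122 CPM, for the same genes, in MCT4-KO cells at 2%. Mcm6 thus stood 2.20 times above Mcm2 in the first group and 2.85 times in the last. With the length of the principal transcript Mcm4, and not Mcm2, was the lowest in every group. Mcm6 then stood 3.41 times above Mcm4 in the first of these groups and 3.83 times in the last.

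Helicase activation genes showed small knockout changes and mostly lower levels at low oxygen. Mcm10 (ENSMUSG00000026669, chromosome 2, 4989714 to 5012791, minus strand), which acts at the step from loaded to moving helicase, had the smallest adjusted p of its role in the knockout at 2% oxygen. Mcm10 read 65.9, 61.2, 62.8 and 64.9 CPM in the controls and 67.6, 70.3, 73.9 and 69.6 CPM in MCT4-KO libraries at 20% oxygen. Its levels at 2% oxygen were 55.4, 57.3, 55.3 and 51.95 CPM in the controls and 68.9, 62.9, 69.2 and 64.997 CPM in MCT4-KO libraries. The knockout libraries lay above the controls at both levels. Mcm10 changed by 0.14 ± 0.041 and 0.27 ± 0.042 in the knockout (edgeR adjusted p = 0.0288 and 3.52e-05) and fell at low oxygen in control cells (-0.21 ± 0.042), while in MCT4-KO cells the change was -0.081 ± 0.041 (adjusted p = 0.0751). With library-size scaling the latter was -0.26, and Mcm10 was called lower in MCT4-KO cells too.

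Dbf4 (ENSMUSG00000002297, chromosome 5, 8396973 to 8422716, minus strand), the activating subunit of the Cdc7 kinase, responded to oxygen alone by these tests. Levels of Dbf4 at 20% oxygen were 111, 111, 109.5 and 109 CPM in the 4 controls, and 112, 110.003, 111 and 112 CPM in the 4 MCT4-KO libraries. At 2% oxygen Dbf4 read 78.6, 77.4, 74.4 and 81.7 CPM in the controls and 75.8, 77.3, 77.8 and 77.8 CPM in the knockout. The 2 oxygen levels were widely separated, and the genotypes overlapped at each. Low oxygen changed Dbf4 by -0.50 ± 0.030 and -0.53 ± 0.030 (edgeR adjusted p = 4.67e-12 and 1.74e-12), and the knockout changes were 0.019 ± 0.030 and -0.016 ± 0.031, neither of which passed. Its kinase partner Cdc7 passed no test with TMM scaling and all 16 libraries, at 11.3 ± 0.532 CPM in control cells at 20% and 10.1 ± 1.16 CPM at 2% oxygen (SD, n = 4). Without control replicate 4 at 2% oxygen Cdc7 was called higher in the knockout at 2% (0.22, adjusted p = 0.0375) and lower at low oxygen in control cells (-0.20, adjusted p = 0.0237), and with library-size scaling it was called in these comparisons and lower in MCT4-KO cells.

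Cdc45, which joins MCM2-7 and GINS in the active helicase, rose in the knockout and fell at low oxygen. Its mean was 98.6 ± 6.34 and 111 ± 6.20 CPM in the controls and MCT4-KO cells at 20% oxygen and 69.7 ± 1.96 and 75.7 ± 1.76 CPM at 2% (SD, n = 4). The rise in the knockout at 2% was lost in 14 of 24 alternatives. The 4 GINS genes, subunits of 1 complex, did not move together at low oxygen: Gins2 (0.34 and 0.37 in control and MCT4-KO cells) and Gins4 (0.30 and 0.23) rose, Gins3 fell (-0.21 and -0.22), and Gins1 fell in MCT4-KO cells (-0.23). None of the 4 passed the test in the knockout with TMM scaling and all 16 libraries, while Gins2 was called higher at 2% oxygen with library-size scaling, and without control replicate 4 at 2% (0.096, adjusted p = 0.0422). With library-size scaling Gins2 still rose, Gins4 was not called and Gins1 was called lower in both genotypes. Exons of Gse1 overlap 67.3% of those of Gins2, and Gse1 changed by 0.37 ± 0.052 and 0.25 ± 0.052 at low oxygen, which was not separated from the Gins2 value.

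The polymerases and the primase were split at low oxygen. Among the 3 subunits of polymerase delta described here, which extends the lagging strand, the catalytic Pold1 (ENSMUSG00000038644, chromosome 7, 44532746 to 44548849, minus strand) gave the largest rise. At 20% oxygen Pold1 stood at 83.7, 86.3, 86.96 and 92.5 CPM in the control and at 91.1, 91.3, 100.03 and 96.3 CPM in the MCT4-KO libraries. The levels of Pold1 at 2% oxygen were 142, 141, 145 and 149 CPM in control libraries, and the MCT4-KO libraries had 154, 146, 150.1 and 154 CPM. All libraries at 2% oxygen lay far above those at 20%, with the genotypes overlapping at each level. The changes at low oxygen were 0.72 ± 0.038 and 0.67 ± 0.038 (edgeR adjusted p = 4.13e-13 and 1.36e-12).

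The second subunit, Pold2 (ENSMUSG00000020471, chromosome 11, 5872180 to 5878292, minus strand), instead depended on genotype and oxygen together. Pold2 read 84.8, 89.5, 82.96 and 84.1 CPM in the controls and 89.5, 87.5, 89.5 and 90.7 CPM in MCT4-KO libraries at 20% oxygen. In control libraries at 2% oxygen Pold2 stood at 87.2, 89.6, 89.2 and 88.04 CPM, against 111, 110.2, 109.6 and 103 CPM in MCT4-KO libraries. MCT4-KO libraries at 2% oxygen stood above the other 12, which overlapped. The knockout change was 0.065 ± 0.033 at 20% and 0.29 ± 0.033 at 2% oxygen (edgeR adjusted p = 0.245 and 1.10e-06), and the difference of 0.23 ± 0.046 passed (adjusted p = 0.00132). Pold3, another subunit, passed no test with TMM scaling (with library-size scaling it was called higher in the knockout at 2% and lower at low oxygen in both genotypes), at 68.5 ± 3.25 and 72.99 ± 2.41 CPM at 20% and 65.2 ± 1.39 and 69.3 ± 1.86 CPM at 2% oxygen in control and MCT4-KO cells (SD, n = 4).

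In polymerase epsilon, the leading strand enzyme, the accessory Pole2 rose at low oxygen (0.66 ± 0.054 and 0.58 ± 0.054 in control and MCT4-KO cells), while the catalytic Pole fell in MCT4-KO cells (-0.24 ± 0.068, edgeR adjusted p = 0.00364) and changed by -0.12 ± 0.069 in control cells, which did not pass. With library-size scaling Pole was called lower in control cells too (-0.33). In the primase, which lays down the RNA starts, Prim1 and Prim2 parted. Levels of Prim1 at 20% oxygen were 49.9, 51.6, 48.7 and 49.9 CPM in the 4 controls, and 49.1, 54.2, 57.1 and 51.7 CPM in the 4 MCT4-KO libraries. For Prim1 the controls at 2% oxygen gave 35.5, 35.6, 37.6 and 34.9 CPM and the MCT4-KO cells 37.7, 37.8, 37.6 and 34.5 CPM. Prim1, the catalytic subunit, was lower in every library at 2% oxygen, with changes of -0.48 ± 0.046 and -0.52 ± 0.045. Prim2, its partner, read 25.7, 26.1, 24.1 and 26.8 CPM in control libraries at 20% oxygen and 36.6, 39.8, 36.9 and 35.3 CPM at 2%. In MCT4-KO libraries Prim2 read 29.3, 29.5, 30.99 and 27.3 CPM and 34.3, 37.1, 35.2 and 35.7 CPM. It rose with low oxygen in both genotypes and with the knockout at 20% oxygen (0.19 ± 0.049), while at 2% the knockout change was -0.063 ± 0.047. That difference passed as an interaction (-0.25 ± 0.068, edgeR adjusted p = 0.0111). With library-size scaling the rise of Prim2 was not called in MCT4-KO cells.

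Polymerase alpha, which extends the primer, has Pola1 as its catalytic subunit. Pola1 fell at low oxygen by 0.23 ± 0.041 in control and by 0.095 ± 0.040 in MCT4-KO cells and rose in the knockout at 2% oxygen (0.24 ± 0.041, edgeR adjusted p = 1.17e-04), with 65.6 ± 1.99 CPM in the controls and 77.3 ± 1.59 CPM in MCT4-KO cells there (SD, n = 4). The fall of Pola1 in MCT4-KO cells was not called in every alternative. Pola2 rose in the knockout at 20% oxygen (0.18 ± 0.039) and changed by 0.032 ± 0.040 at 2%, which did not pass.

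The clamp Pcna, the ring that tethers polymerases, was the most abundant of the 54 per kilobase of merged exons in control cells at 20% oxygen, at 123 CPM. With TMM scaling it moved little: 296 ± 10.2 and 317 ± 6.68 CPM in the controls and MCT4-KO cells at 20% oxygen and 289 ± 8.24 and 306 ± 5.05 CPM at 2% (SD, n = 4). With library-size scaling Pcna was called lower at low oxygen in control (-0.24) and MCT4-KO cells (-0.23). Both knockout changes, 0.10 ± 0.032 and 0.085 ± 0.032, passed narrowly (edgeR adjusted p = 0.0491 and 0.0408), and the first was lost in 16 and the second in 8 of 24 alternatives. The annotation names pseudogenes of Pcna, which could take some of its reads.

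The loader RFC, which opens the clamp, has 5 subunits, and low oxygen divided them. Rfc2 (ENSMUSG00000023104, chromosome 5, 134581366 to 134601805, plus strand) rose most. At 20% oxygen Rfc2 stood at 84.3, 80.8, 77.98 and 83.5 CPM in the control and at 87.9, 91.9, 99.1 and 90.003 CPM in the MCT4-KO libraries. Its levels at 2% oxygen were 139, 129.97, 130.1 and 126 CPM in the controls and 141, 143, 143 and 142 CPM in MCT4-KO libraries. The oxygen levels were far apart, and at each the MCT4-KO libraries lay above the controls. Rfc2 changed by 0.68 ± 0.039 and 0.63 ± 0.039 at low oxygen (edgeR adjusted p = 1.63e-12 and 6.54e-12) and by 0.18 ± 0.039 and 0.12 ± 0.038 in the knockout. Exons of Lat2 overlap 15.1% of its exons, and Lat2 changed by 0.63 ± 0.051 and 0.37 ± 0.052 at low oxygen, which was not separated from the Rfc2 value.

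Rfc1 (ENSMUSG00000029191, chromosome 5, 65261850 to 65335670, minus strand), the large subunit, rose too. Rfc1 read 106, 98.4, 105 and 103 CPM in the controls and 112, 114, 110.4 and 110.4 CPM in MCT4-KO libraries at 20% oxygen. At 2% oxygen Rfc1 read 134, 132, 128 and 121 CPM in the controls and 135, 138, 146 and 139 CPM in the knockout. The change at low oxygen was 0.32 ± 0.037 and 0.32 ± 0.037, and in the knockout 0.12 ± 0.037 and 0.12 ± 0.037 (edgeR adjusted p = 0.0509 and 0.0156). Rfc3 (-0.21 and -0.22) and Rfc4 (-0.37 and -0.29) fell at low oxygen in control and MCT4-KO cells. Rfc5 rose by 0.15 and 0.078 with TMM scaling and was at -0.055 and -0.099 with library-size scaling, the last of these called lower. Dscc1, part of the alternative loader that acts in sister chromatid cohesion, stood at 6.74 ± 0.347 CPM in control cells at 20% oxygen and fell to 5.28 ± 0.687 CPM at 2% (SD, n = 4).

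All 5 genes of lagging strand synthesis and RPA rose at low oxygen in both genotypes, and on library-size scaling all but Rpa2 were still called. RPA coats single-stranded DNA as a complex of Rpa1, Rpa2 and Rpa3. Rpa3 (ENSMUSG00000012483, chromosome 6, 8255936 to 8259173, minus strand) gave the largest rise of the 54 in control cells. Levels of Rpa3 at 20% oxygen were 33.3, 32.99, 29.4 and 29.5 CPM in the 4 controls, and 31.6, 32.4, 34.1 and 34.5 CPM in the 4 MCT4-KO libraries. The levels of Rpa3 at 2% oxygen were 52.1, 51.7, 50.9 and 65.9 CPM in control libraries, and the MCT4-KO libraries had 52.9, 50.4, 49.9 and 53.6 CPM. Low oxygen separated the libraries, and control replicate 4 stood apart at the top. Low oxygen changed Rpa3 by 0.82 ± 0.069 and 0.64 ± 0.068 (edgeR adjusted p = 7.97e-10 and 3.47e-08), with 0.72 in control cells without that library.

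Rpa1 (ENSMUSG00000000751, chromosome 11, 75298166 to 75348324, minus strand) added a knockout change at 2% oxygen. At 20% oxygen Rpa1 stood at 122, 130.02, 131 and 128 CPM in the control and at 133, 136, 139.99 and 133 CPM in the MCT4-KO libraries. In control libraries at 2% oxygen Rpa1 stood at 167, 172, 169 and 156 CPM, against 206, 199.7, 205 and 203 CPM in MCT4-KO libraries. The 4 groups did not overlap. The knockout change was 0.087 ± 0.034 at 20% oxygen and 0.29 ± 0.033 at 2% (edgeR adjusted p = 0.120 and 1.38e-06), with a difference of 0.21 ± 0.048 (adjusted p = 0.00360). In the same complex Rpa2 rose at 2% oxygen in the knockout (0.17 ± 0.048), and Rpa3 changed by -0.094 ± 0.066 there, or by 0.0035 without control replicate 4, which did not pass.

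Fen1, the nuclease that trims Okazaki flaps, rose in all 4 comparisons, by 0.20 ± 0.046 and 0.23 ± 0.045 in the knockout and by 0.48 ± 0.046 and 0.51 ± 0.045 at low oxygen. It stood at 66.5 ± 3.82 CPM in control cells at 20% and at 109 ± 2.45 CPM in MCT4-KO cells at 2% oxygen (SD, n = 4). Exons of Gm10143 and Tmem258 overlap 84.2% of its exons, so its counts are uncertain. Tmem258 changed by 0.73 ± 0.062 and 0.81 ± 0.062 at low oxygen and by -0.10 ± 0.064 and -0.026 ± 0.060 in the knockout. Lig1, the ligase that seals the fragments, rose at low oxygen (0.42 ± 0.037 and 0.44 ± 0.036) and in the knockout at 2% (0.13 ± 0.036).

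Chromatin assembly factor 1, which places histones behind the fork, responded to both conditions. Chaf1a (ENSMUSG00000002835, chromosome 17, 56040439 to 56072289, plus strand), its large subunit, rose in all 4 comparisons. Chaf1a read 80.7, 83.2, 77.1 and 82.7 CPM in the controls and 85.5, 91.8, 87.97 and 85.3 CPM in MCT4-KO libraries at 20% oxygen. For Chaf1a the controls at 2% oxygen gave 97.5, 96.9, 96.5 and 99.2 CPM and the MCT4-KO cells 111, 117, 114 and 112 CPM. The 4 groups were separate, in the same order as for Cdc6. The knockout changes came to 0.11 ± 0.034 and 0.22 ± 0.033 (edgeR adjusted p = 0.0354 and 2.82e-05), and the oxygen changes 0.27 ± 0.034 and 0.38 ± 0.033, of which the first was not called with library-size scaling. Exons of Ubxn6, on the other strand, overlap 52.5% of its exons, and Ubxn6 changed the other way in the knockout at 2% oxygen (-0.44 ± 0.047). Chaf1b rose at 2% oxygen in the knockout (0.26 ± 0.043), with an interaction of 0.22 ± 0.061.

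Of the 4 fork protection and checkpoint genes, 3 fell at low oxygen in control cells, 2 fell in MCT4-KO cells and 3 rose in the knockout at 2% oxygen; the first and last of these comparisons share the control libraries at 2%. Wdhd1 (ENSMUSG00000037572, chromosome 14, 47240944 to 47276857, minus strand), which links polymerase alpha to the helicase, led both. Levels of Wdhd1 at 20% oxygen were 53.8, 53.2, 54.6 and 58.2 CPM in the 4 controls, and 58.2, 61.6, 59.1 and 60.1 CPM in the 4 MCT4-KO libraries. Its levels at 2% oxygen were 42.5, 46.3, 40.5 and 40.9 CPM in the controls and 48.1, 50.4, 53.7 and 48.7 CPM in MCT4-KO libraries. The controls at 2% oxygen formed the lowest group, and knockout libraries lay above controls at both levels. Wdhd1 changed by -0.37 ± 0.046 at low oxygen in control cells and by -0.25 ± 0.045 in MCT4-KO cells (edgeR adjusted p = 3.54e-07 and 3.93e-05). In the knockout it changed by 0.12 ± 0.044 at 20% and 0.24 ± 0.047 at 2% oxygen (adjusted p = 0.0901 and 4.15e-04), and the difference was not called (0.12 ± 0.064).

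Clspn, which encodes claspin, the adaptor that passes the stall signal to Chk1, had means of 43.5 ± 3.04 and 38.8 ± 2.43 CPM in control cells at 20% and 2% oxygen and of 47.8 ± 3.96 and 45.4 ± 0.943 CPM in MCT4-KO cells (SD, n = 4). Its fall in control cells passed (edgeR adjusted p = 0.0161) and the change in MCT4-KO cells did not (adjusted p = 0.253). With library-size scaling the change in MCT4-KO cells was -0.25, and Clspn was called lower there too. The call in control cells was lost in 3 of 24 alternatives, among them the one without control replicate 4 at 2% oxygen (-0.12, adjusted p = 0.0664). Timeless, which holds the fork together with Tipin, fell in both genotypes (-0.17 and -0.14), though in MCT4-KO cells not in every alternative. Tipin passed no test with TMM scaling (with library-size scaling it was called lower at low oxygen in both genotypes) and read 79.8 ± 4.79, 80.4 ± 4.73, 76.9 ± 4.89 and 80.997 ± 2.33 CPM in the controls and MCT4-KO cells at 20% and then at 2% oxygen (SD, n = 4).

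The G1/S regulators rose together in the knockout at 2% oxygen. Ccne1 (ENSMUSG00000002068, chromosome 7, 38097984 to 38107534, minus strand), cyclin E1, activates Cdk2 at the entry to S phase. At 20% oxygen Ccne1 stood at 15.4, 15.8, 15.3 and 15.7 CPM in the control and at 16.4, 15.3, 16.8 and 15.96 CPM in the MCT4-KO libraries. At 2% oxygen Ccne1 read 8.95, 10.1, 11.2 and 12.3 CPM in the controls and 14.7, 15.01, 15.2 and 15.1 CPM in the knockout. The controls at 2% oxygen lay below the other 3 groups, which stood between 14.7 and 16.8 CPM. Low oxygen changed Ccne1 by -0.55 ± 0.069 in control cells (edgeR adjusted p = 3.48e-07) and by -0.10 ± 0.065 in MCT4-KO cells, whose libraries did not overlap although the test did not pass (adjusted p = 0.160). With library-size scaling the change in MCT4-KO cells was -0.28, and Ccne1 was called lower there too. The interaction of 0.45 ± 0.095 passed (adjusted p = 0.00189) and did so in each of 23 alternatives. Ccne2, cyclin E2, fell in control cells at low oxygen (-0.17 ± 0.063) and rose in the knockout at 2% (0.19 ± 0.063), without a called interaction (adjusted p = 0.205). The first call was lost in 2 and the second in 3 of 24 alternatives. Exons of Ints8 overlap 17.4% of those of Ccne2, and Ints8 changed by -0.70 ± 0.037 and -0.73 ± 0.037 at low oxygen and by -0.0059 ± 0.038 in the knockout at 2%, which was not separated from the Ccne2 values.

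E2f2 (ENSMUSG00000018983, chromosome 4, 136172394 to 136196057, plus strand), an activating E2F factor, was lower at low oxygen. E2f2 read 57.9, 54.98, 54.2 and 62.1 CPM in the controls and 53.3, 58.5, 62.5 and 58.04 CPM in MCT4-KO libraries at 20% oxygen. The levels of E2f2 at 2% oxygen were 34.2, 35.5, 38.1 and 35.9 CPM in control libraries, and the MCT4-KO libraries had 39.7, 42.4, 39.3 and 42.3 CPM. All libraries at 2% oxygen lay below those at 20%, and there the MCT4-KO libraries lay above the controls. It changed by -0.68 ± 0.053 and -0.51 ± 0.051 at low oxygen (edgeR adjusted p = 2.30e-10 and 1.57e-08) and 0.19 ± 0.054 in the knockout at 2% (adjusted p = 0.00964). E2f1 instead stood higher in the knockout at both levels, at 26.4 ± 1.78 against 31.2 ± 1.85 CPM at 20% and 29.7 ± 1.36 against 35.3 ± 0.949 CPM at 2% oxygen (SD, n = 4). At low oxygen E2f1 rose by 0.17 and 0.18 with TMM scaling but was not called in either genotype with library-size scaling.

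**Figure D5:**
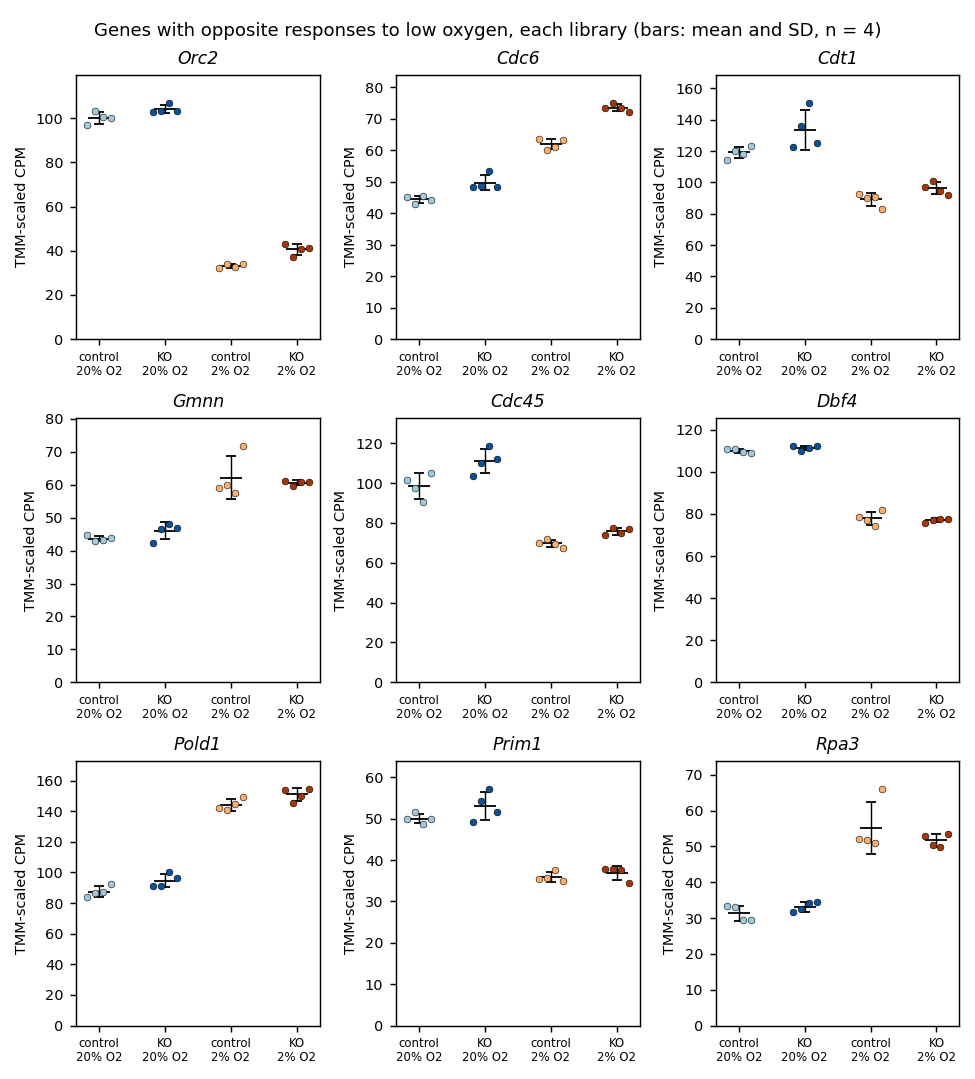
TMM-scaled CPM (vertical axis, from 0) of 9 genes in each library (points) of the 4 groups, with the mean and SD of 4 libraries as bars. At 2% oxygen Cdc6, Gmnn, Pold1 and Rpa3 lie above their points at 20%, while Orc2, Cdt1, Cdc45, Dbf4 and Prim1 lie below.

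Other replication genes were counted from a list that holds no member. Of 33 such genes, among them initiation factors, topoisomerases and checkpoint kinases, 6 rose and 0 fell in the knockout at 20% oxygen (beside 4.96% and 4.8% of all genes), and 11 rose and 3 fell at 2% (beside 19.4% and 19.1%). At low oxygen 10 rose and 19 fell in control (beside 38.7% and 39.6% of all genes) and 10 rose and 18 fell in MCT4-KO cells (beside 37.7% and 38.7%), and with library-size scaling 7 and 23, and 5 and 22. Pclaf, a partner of the clamp, rose in all 4 comparisons of 2 groups, and stood at 141 ± 3.99 CPM in control cells at 20% oxygen and at 268 ± 5.13 CPM in MCT4-KO cells at 2% (SD, n = 4). Atr, the kinase that answers stalled forks, read 35.2, 33.1, 35.98 and 31.4 CPM in the controls and 45.5, 45.4, 49.3 and 51.03 CPM in MCT4-KO libraries at 2% oxygen, a change of 0.50 ± 0.057 (edgeR adjusted p = 1.58e-06). Pold4, the smallest subunit of polymerase delta, fell in that comparison (-0.40 ± 0.052) and rose at low oxygen in control cells (1.06 ± 0.054). Mtbp and Recql4, which act with the loaded helicase at the start of replication, fell at low oxygen in control cells (-0.89 ± 0.049 and -0.997 ± 0.056).

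Of 10 genes of deoxynucleotide supply, 4 rose and 0 fell in the knockout at each oxygen level, beside 4.96% and 4.8% of all genes at 20% and 19.4% and 19.1% at 2%. With library-size scaling 7 rose at 2%. Rrm2, the regulated subunit of ribonucleotide reductase, read 120.2, 128, 126 and 119 CPM in the controls and 166, 159, 163 and 160.2 CPM in MCT4-KO libraries at 2% oxygen (0.40 ± 0.035, edgeR adjusted p = 7.75e-08). At 20% oxygen it read 129, 129, 130.4 and 138 CPM and 134, 141, 139 and 132 CPM, and the difference between the knockout effects was 0.34 ± 0.049 (adjusted p = 7.19e-05). Rrm2 thus belongs with Mcm2 and Pold2 in that its knockout change was larger at 2% oxygen. Rrm1, its large subunit, rose in the knockout at both levels (0.11 ± 0.032 and 0.21 ± 0.032) and at low oxygen in both genotypes (0.48 ± 0.032 and 0.57 ± 0.032). Tk1, thymidine kinase, differed the other way (-0.32 ± 0.083), with a knockout rise of 0.32 ± 0.061 at 20% oxygen.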

How the data were processed

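RNA from 16 libraries was measured, and the authors deposited 1 table of expected counts by gene, the kind of value that RSEM makes. The submitters' processing notes name HISAT2, RSEM and mm10, with no order, while tool versions, the annotation and the strand setting were not given in the sources. Of these counts 10.1% were not whole, and all were rounded. Symbols, positions and exon overlaps came from GENCODE vM21 (GRCm38), and promoters from RefSeq (GRCm38.p6). Genes without a symbol held 0.0103% of the counts. Low counts were filtered with filterByExpr (edgeR 4.0.16, R 4.3.3), which left 13774 genes holding 99.9% of the counts. With TMM scaling, 1 model with a mean per group (12 residual df, biological CV 4.61%) was tested by edgeR's quasi-likelihood F-test, adjusted by Benjamini-Hochberg over all tested genes, threshold 0.05. The test was also tried on simulated data. A count of 0 allows up to 3 counts, on average 0.124 CPM, for counting error only.

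The members, roles and other lists were chosen with earlier results of these data known, so no list is tested as such and counts stand beside those of all tested genes. Written out with every library were the MCM2-7 genes and, per role, the member with the smallest adjusted p in the knockout at 2% oxygen and in low oxygen in control cells; other members were named where they departed from their role or its complex, and Cdt1, Gmnn, Prim1, Prim2 and Orc1 were written out after their values were seen. From the other lists, genes were named out of the up to 4 called ones with the smallest adjusted p in each comparison. Within each group every pair of libraries differed by more than sampling noise, with a chi-square that averaged 1.76 to 12.4 over the genes. Same-numbered libraries did not deviate together (correlations of -0.093 to 0.063), so no replicate block was used. Alternatives were DESeq2 size factors, library-size scaling, no count filter, a filter of 1 CPM in 8 libraries, the DESeq2 1.42.0 Wald test, limma-voom (limma 3.58.1), compared groups only, the replicate block and each library left out.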

Additional observations from a re-analysis of the deposited data

Results flagged for a closer look

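Among 220 sets of 4 libraries (the 54 genes and Slc16a3 in each group), 16 held a library far from the other 3 by Dixon's test. Chance gives such a library in about 1 in 20 sets. Of the 16, 5 fell on replicate 4 of the controls at 2% oxygen. In that library Gmnn was the highest at 71.7 CPM beside 57.6 to 59.9 CPM, Mcm2 was the lowest at 212 CPM beside 236 to 237 CPM, Pold3 was the lowest at 63.2 CPM beside 65.6 to 66.1 CPM, Rpa3 was the highest at 65.9 CPM beside 50.9 to 52.1 CPM and Tipin was the highest at 84.2 CPM beside 73.6 to 75.2 CPM. In replicate 2 of the same group Mcm6 was the highest at 487 CPM beside 457 to 459.9 CPM. In replicate 1 of the MCT4-KO cells at 20% oxygen, Dscc1 was the lowest at 6.998 CPM beside 7.57 to 7.65 CPM and Chaf1b was the lowest at 34.6 CPM beside 36.9 to 37.1 CPM. In replicate 3 of the MCT4-KO cells at 20% oxygen, Orc2 was the highest at 107 CPM beside 103 to 103 CPM and Cdc6 was the highest at 53.3 CPM beside 48.3 to 48.6 CPM. In replicate 4 of the MCT4-KO cells at 20% oxygen, Pola1 was the lowest at 78.4 CPM beside 83.6 to 84.3 CPM. In replicate 1 of the MCT4-KO cells at 2% oxygen, Pole was the lowest at 52.9 CPM beside 56.7 to 57.03 CPM and Tipin was the highest at 84.5 CPM beside 79.7 to 80.1 CPM. In replicate 4 of the MCT4-KO cells at 2% oxygen, Prim1 was the lowest at 34.5 CPM beside 37.6 to 37.8 CPM. In replicate 2 of the controls at 20% oxygen, Orc5 was the lowest at 61.002 CPM beside 62.1 to 62.3 CPM. In replicate 3 of the controls at 20% oxygen, Rfc3 was the lowest at 22.5 CPM beside 24.7 to 24.9 CPM.

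The knockout effect on 13 of the 54 genes differed between the oxygen levels by edgeR's test of the interaction (adjusted p under 0.05). The log2 differences, 2% minus 20% oxygen, were 0.47 for Orc1, 0.23 for Orc2, 0.23 for Orc3, 0.27 for Mcm2, 0.18 for Mcm3, 0.15 for Mcm5, 0.13 for Mcm6, 0.23 for Pold2, 0.21 for Rpa1, 0.22 for Chaf1b and 0.45 for Ccne1. They were -0.20 for Orc5 and -0.25 for Prim2. For Orc5 the mean knockout change turned from 0.038 to -0.16, and for Prim2 from 0.19 to -0.063.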

How the results depend on the processing

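Without 1 library, members called higher ranged from 9 to 22 in the knockout at 20% oxygen and from 26 to 32 at 2%, where 1 to 2 were lower. At low oxygen 23 to 24 were higher and 17 to 21 lower in control cells, and 25 to 27 and 16 to 19 in MCT4-KO cells. In the interaction 8 to 11 were higher and 2 to 3 lower. In the knockout at 20% oxygen 0 members were called lower by edgeR, by DESeq2 and by limma-voom, and 0 at an unadjusted p under 0.05. Fitting only the compared groups gave 11 higher at 20% and 2 lower at 2% oxygen in the knockout. Library-size scaling gave 15 higher at low oxygen in control and 29 lower in MCT4-KO cells, and turned called changes at low oxygen to -0.10 for Chaf1b, -0.038 for E2f1, -0.081 for Mcm2, -0.039 for Orc3 and -0.055 for Rfc5 in control, and to -0.091 for Mcm5 and -0.099 for Rfc5 in MCT4-KO cells; this scaling also shifts the median of all genes. With a replicate block 13 were higher in the knockout at 20%, 29 higher and 1 lower at 2%, 24 and 19 at low oxygen in control, 26 and 17 in MCT4-KO cells, and 9 and 2 in the interaction. Replicate numbers alone do not pair the libraries. Every other setting kept each count within 1.5 times. Of the calls 9 of 17, 24 of 32, 15 of 24, 21 of 27 and 8 of 11 higher ones held in all alternatives. Orc1, at about 4 CPM, rests on few counts.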

Other observations

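Mitotic genes, whose products act after replication, were counted in the same comparisons. Of 30 genes of the spindle, the kinetochore and mitotic entry, 3 rose and 0 fell in the knockout at 20% oxygen (beside 4.96% and 4.8% of all genes), and 5 rose and 6 fell at 2% (beside 19.4% and 19.1%). Kif23, a motor of cytokinesis, and Cenpa, the centromeric histone, fell at 2% (-0.24 ± 0.049 and -0.21 ± 0.046, edgeR adjusted p = 6.91e-04 and 0.00116). With library-size scaling 6 rose and 0 fell at 20%, and 9 rose and 2 fell at 2%. At low oxygen 18 of the 30 rose and 6 fell in control cells (beside 38.7% and 39.6%) and 19 and 7 in MCT4-KO cells (beside 37.7% and 38.7%), and with library-size scaling 14 and 12, and 13 and 11. Bub1, a spindle checkpoint kinase, and Ccnb2, cyclin B2, rose in control cells (0.93 ± 0.054 and 0.75 ± 0.030). Top2a stands both in this list and in that of other replication genes.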
